A study of Mus musculus with 6 samples.

Results

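The condensin subunits and the type II topoisomerases were followed in CD4+CD8+ double-positive thymocytes, the most abundant stage of the thymus. The group holds 10 genes chosen by name from the 29626 rows of the deposited count table, namely Top2a, Top2b, Smc2, Smc4, Ncapd2, Ncapg, Ncaph, Ncapd3, Ncapg2 and Ncaph2. All 10 matched a single row, and all 10 were among the 15353 genes that passed the filter on low counts. The sorted cells gave 3 samples from Kansl1fl/fl CD4-Cre mice, labelled KANSL1-deficient, and 3 samples from littermate Kansl1fl/fl mice without Cre, labelled WT and called control here. All mice were 8 weeks old and carried the floxed allele, and Cre was present only in the KANSL1-deficient group, so effects of Cre and of losing Kansl1 cannot be told apart. The CD4-Cre transgene acts in T-lineage cells from about the double-positive stage, and the cells came straight from the animal without culture.

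Condensins are ring-shaped protein complexes that fold chromatin into compact mitotic chromosomes. Both vertebrate condensins share a pair of ATPase arms, SMC2 and SMC4, and differ in their other subunits. Condensin I carries the HEAT-repeat proteins NCAPD2 and NCAPG and the kleisin NCAPH, and it reaches the chromosomes after the nuclear envelope breaks down. Condensin II carries NCAPD3, NCAPG2 and NCAPH2 and is nuclear throughout the cell cycle. Type II topoisomerases pass a DNA double strand through a transient break in another. TOP2A is the form of dividing cells, which untangles sister chromatids, while TOP2B is made in dividing and resting cells alike and acts at transcribed genes. Most double-positive thymocytes are resting, and a minority, the blasts that have just left the double-negative stage, divide rapidly.

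Library totals lay between 19361968 and 22459830 counts. Defining markers of the labelled cell type were abundant, as read from Cd4 (1784 to 2583 CPM over the 6 libraries), Cd8a (1894 to 3037 CPM) and Rag1 (2885 to 3339 CPM), where CPM is the count scaled to a common library size with TMM factors. Kansl1 itself was read at 145, 168 and 188 CPM in KANSL1-deficient libraries, against 214, 188 and 230 CPM in control libraries. Its log2 fold change was -0.33 ± 0.14 (SE), which missed the threshold in the quasi-likelihood test of edgeR (adjusted p = 0.171 after Benjamini and Hochberg). The counts are of the whole gene, undeleted exons included, so the extent of deletion was not tested. Control replicate 1 stood apart from the other controls in genes of mitosis. The summed level of 10 mitotic marker genes (Ccnb1, Ccnb2, Ccna2, Cdc20, Bub1, Tpx2, Cenpf, Birc5, Hmmr and Nusap1) was 540, 582 and 611 CPM in KANSL1-deficient libraries, against 234, 121 and 113 CPM in control replicates 1 to 3. Values without this library are given beside called results that it moves by over 1.5 times or whose call or direction it decides, and beside the ratios below.

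Of the 10 genes, 6 rose in the KANSL1-deficient cells and 0 fell. The 6 were Top2a, Smc4, all 3 condensin I subunits and Ncapg2 of condensin II. Of all tested genes, 3.85% were called higher and 2.91% lower, 6.76% in all (edgeR, adjusted p under 0.05). Among tested genes with a mean of at least 20 CPM, which 9 of the 10 had, 6.67% were called higher. All 10 had a positive log2 fold change. At an unadjusted p under 0.05, 8 were higher and 0 lower, against 11.7% higher and 11.0% lower of all tested genes. DESeq2 called 7 higher and 0 lower, where it called 7.56% of all genes higher. The authors' deposited table has an adjusted p under 0.05 and a higher level for the same 7 of the 10 (the 6 and Smc2), and for 7.92% of its genes. Its unadjusted p-values for the 10 genes equal those of the DESeq2 run here, so it is not a separate test. The authors' deposited table marks 5 of the 7 as significant, all but Smc4 and Smc2, and 2.16% of its genes as significant and higher. In it the 5 marked genes had log2 fold changes of 1.03 to 1.92. Unmarked were Smc4, at 0.77 (DESeq2, adjusted p = 7.83e-08), and Smc2, at 0.70 (0.0241). The median log2 fold change was 0.90 for the 10 genes and -0.02 for all tested genes. Between the groups 7 of the 10 genes did not overlap in CPM, all 7 with the KANSL1-deficient libraries above the control libraries, while 28.5% of all tested genes did not overlap in either direction and 14.6% did not overlap with the KANSL1-deficient libraries above. The 3 whose libraries overlapped were Smc2, Ncapd3 and Ncaph2. In bulk RNA of this kind, a larger share of dividing cells and more RNA per dividing cell cannot be told apart. All 10 mitotic marker genes and 7 of 10 G1/S genes rose as well, and their part in these results was not tested.

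**Figure D1:**
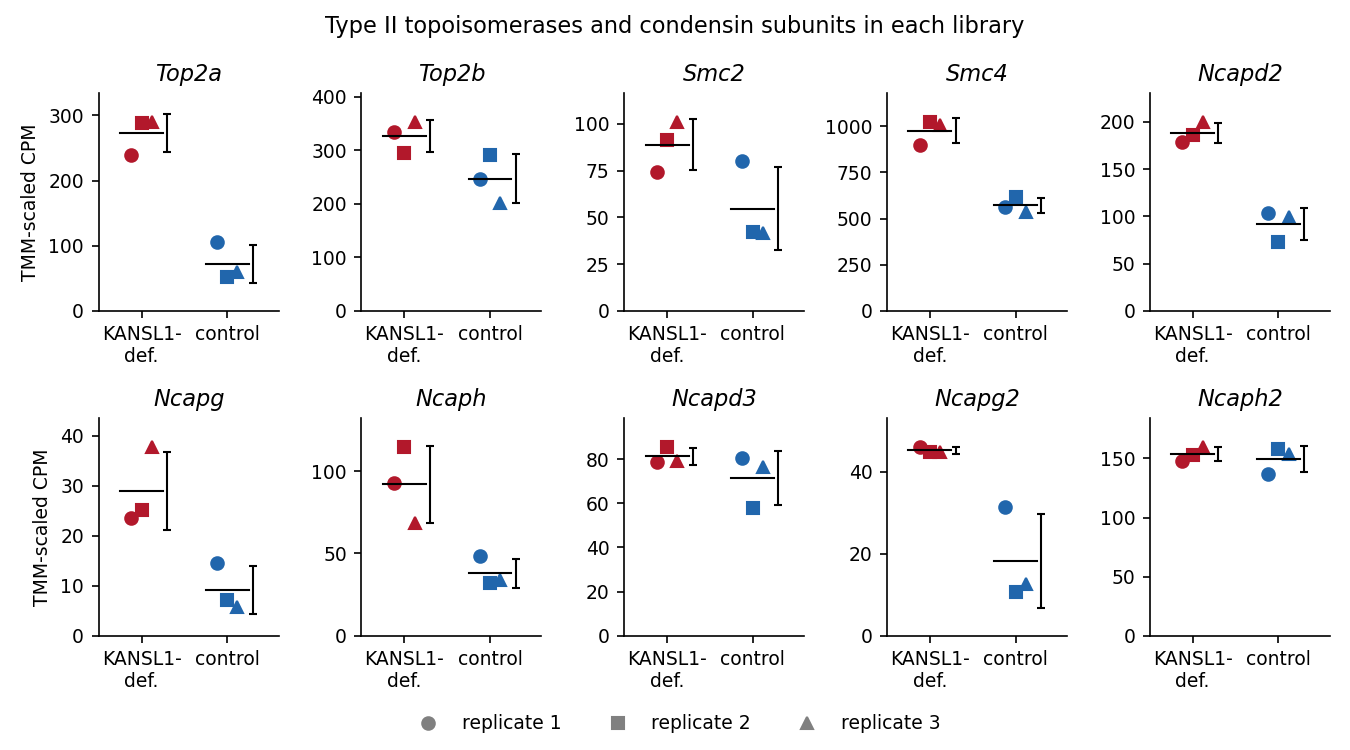
TMM-scaled CPM of the 10 genes in each library (circle, square and triangle for replicates 1, 2 and 3), with the group mean as a line and the SD as an error bar beside it (n = 3 each, every axis from 0). Top2a lies between 239 and 290 CPM in KANSL1-deficient and between 52.0 and 106 CPM in control libraries, while the groups overlap for Smc2, Ncapd3 and Ncaph2.

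Top2a rose, with the largest log2 fold change of the 10. It was read at 239, 289 and 290 CPM in KANSL1-deficient libraries, against 106, 52.0 and 59.0 CPM in control libraries. Every KANSL1-deficient library lay far above every control, and control replicate 1 was the highest control. Top2a averaged 273 ± 29.1 CPM in KANSL1-deficient and 72.3 ± 29.3 CPM in control libraries (SD, n = 3 each), and the log2 fold change was 1.92 ± 0.23 (SE), a 3.77-fold difference (edgeR, adjusted p = 0.00308). By p it ranked 12 of the 15353 tested genes. Without any 1 library its log2 fold change lay between 1.71 and 2.28. Top2a (ENSMUSG00000020914) lies on chromosome 11, 98883769 to 98915015, minus strand in GRCm39.

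Top2b did not pass the test. It was read at 334, 294 and 353 CPM in KANSL1-deficient libraries, against 247, 292 and 201 CPM in control libraries. The groups were separated only by the small gap between KANSL1-deficient replicate 2 and control replicate 2. The log2 fold change was 0.41 ± 0.15 (SE; edgeR, adjusted p = 0.12), and the authors' deposited table lists an adjusted p of 0.0555 for it. Top2b (ENSMUSG00000017485) lies on chromosome 14, 6034301 to 6104584, minus strand in GRCm39.

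The difference between the paralogs can be read inside each library, where scaling has no part. The FPKM ratio of Top2a over Top2b was 1.16, 1.59 and 1.33 in the KANSL1-deficient libraries, against 0.695, 0.289 and 0.475 in the control libraries. FPKM is a count divided by the length of the gene and by the library size, so that genes of different length can be compared. In FPKM, Top2a was thus the higher paralog in each KANSL1-deficient library and Top2b in each control library. In CPM, which is not divided by length, Top2b was above Top2a in every library. The FPKM values imply lengths of 9013 bases for Top2a and 14613 for Top2b. Which paralog is higher in KANSL1-deficient libraries depends on these lengths, while the difference between the groups does not. The log2 ratio averaged 0.43 ± 0.23 in KANSL1-deficient and -1.13 ± 0.64 in control libraries (SD, n = 3 each), a difference of 1.56 (exact two-sided permutation test, p = 0.1, the smallest that 3 against 3 libraries allow, and 0.133 when adjusted over the 16 ratios computed). Leaving out any 1 library gave differences between 1.23 and 1.87, the last of these without control replicate 1.

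The promoter windows of both paralogs are shown because their transcripts differed in their change. They run from 250 bases before to 50 bases after the annotated start, 5′ to 3′ on the gene's strand (RefSeq, GRCm38.p6; the counts use GRCm39, in which these genes have other coordinates). Top2a is at chr11:99024140-99024439 on the minus strand and Top2b at chr14:16364956-16365255 on the plus strand of that build. Capitals mark 3 kinds of letters, on either strand and allowed to overlap. CCAAT is the box bound by NF-Y. TTTGAA, like its variant TTCGAA, is a form of the cell cycle homology region bound by MuvB complexes. The E2F-like letters were TTTGGCG, then the form TTTCGCG, and also the form TTTCCCG.
Top2a: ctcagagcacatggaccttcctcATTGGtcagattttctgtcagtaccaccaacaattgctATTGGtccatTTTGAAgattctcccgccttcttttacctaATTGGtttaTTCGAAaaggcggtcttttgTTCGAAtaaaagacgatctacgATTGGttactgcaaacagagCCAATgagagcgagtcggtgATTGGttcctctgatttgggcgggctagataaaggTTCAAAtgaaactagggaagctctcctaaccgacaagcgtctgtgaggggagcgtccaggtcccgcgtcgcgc
Top2b: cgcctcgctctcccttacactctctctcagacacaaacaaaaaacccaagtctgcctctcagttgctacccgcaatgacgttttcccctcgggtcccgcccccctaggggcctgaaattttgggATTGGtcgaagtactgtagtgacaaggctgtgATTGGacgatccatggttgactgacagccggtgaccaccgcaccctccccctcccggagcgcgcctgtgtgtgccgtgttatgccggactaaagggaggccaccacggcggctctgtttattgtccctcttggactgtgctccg
The Top2a window held CCAAT 6 times, TTTGAA 2 times and TTCGAA 2 times, with the TTTGAA nearest the start on the opposite strand, from 23 bases upstream. The Top2b window held CCAAT 2 times and none of the other letters. Over all 32851 windows of the table, 37.4% held CCAAT, 17.9% TTTGAA and 1.56% TTCGAA. These are matches of letters and say nothing of binding in these cells.

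The shared SMC arms had similar log2 fold changes but unequal spread, and of the 2 only Smc4 passed the test. Smc4 was read at 897, 1024 and 1006 CPM in KANSL1-deficient libraries, against 561, 617 and 535 CPM in control libraries. The groups were far apart, and control replicate 1 lay between the other controls. Its log2 fold change was 0.77 ± 0.11 (SE; edgeR, adjusted p = 0.00472), and it lay between 0.72 and 0.83 without any 1 library. Smc4 (ENSMUSG00000034349) lies on chromosome 3, 68912071 to 68941956, plus strand in GRCm39.

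Smc2 was read at 74.3, 91.1 and 101 CPM in KANSL1-deficient libraries, against 80.1, 42.4 and 41.4 CPM in control libraries. Control replicate 1 lay above KANSL1-deficient replicate 1, and the other controls lay below all 3 KANSL1-deficient libraries. A log2 fold change of 0.70 ± 0.24 (SE) resulted and did not pass (edgeR, adjusted p = 0.0995). Without control replicate 1 it was 1.07 and passed (adjusted p = 0.01), and over the 6 libraries left out in turn the adjusted p ran between 0.01 and 0.306. The authors' deposited table lists an adjusted p of 0.0241 for Smc2. Smc2 (ENSMUSG00000028312) lies on chromosome 4, 52439243 to 52488260, plus strand in GRCm39.

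SMC2 and SMC4 proteins pair with each other in the complex, but their transcripts were far from equal in these cells. Smc4 had 160, 186 and 188 FPKM in the KANSL1-deficient libraries, against 115, 123 and 108 FPKM in the control libraries. Smc2 had 12.6, 15.7 and 17.8 FPKM in the KANSL1-deficient libraries, against 15.6, 8.02 and 7.97 FPKM in the control libraries. The FPKM ratio of Smc2 over Smc4 was 0.0788 to 0.0950 in the KANSL1-deficient libraries and 0.0654 to 0.136 in the control libraries. The log2 ratio averaged -3.54 ± 0.14 in KANSL1-deficient and -3.53 ± 0.57 in control libraries (SD, n = 3 each), a difference of -0.02 (exact two-sided permutation test, p = 1; 1 when adjusted over the 16 ratios). That difference changed sign without KANSL1-deficient replicate 1 (0.05) and without control replicate 1 (0.31).

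All 3 subunits specific to condensin I rose. Ncapd2, which encodes a HEAT-repeat subunit, was read at 179, 186 and 200 CPM in KANSL1-deficient libraries, against 104, 72.5 and 98.9 CPM in control libraries. Ncapd2 averaged 188 ± 10.9 CPM in KANSL1-deficient and 91.9 ± 17.0 CPM in control libraries (SD, n = 3 each), and the log2 fold change was 1.03 ± 0.15 (SE; edgeR, adjusted p = 0.00465). Ncaph, which encodes the kleisin that closes the ring, was read at 93.0, 115 and 68.4 CPM in KANSL1-deficient libraries, against 48.2, 32.0 and 33.8 CPM in control libraries. KANSL1-deficient replicate 3 was the lowest of its group yet above every control. The log2 fold change of Ncaph was 1.28 ± 0.22 (SE; edgeR, adjusted p = 0.00716).

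Ncapg, the other HEAT-repeat subunit of condensin I, had the largest log2 fold change of the 8 condensin subunits and the lowest level. It was read at 23.6, 25.1 and 37.8 CPM in KANSL1-deficient libraries, against 14.6, 7.08 and 5.67 CPM in control libraries. KANSL1-deficient replicate 3 and control replicate 1 were the highest of their groups. The log2 fold change was 1.67 ± 0.34 (SE; edgeR, adjusted p = 0.0158). It was 1.43 and did not pass without KANSL1-deficient replicate 3 (adjusted p = 0.0591), nor at 1.50 without control replicate 2 (0.0793), and the adjusted p was 0.00414 at its lowest, over all libraries left out in turn. The 3′ part of Ncapg overlaps Lcorl on the opposite strand over 3366 bases. Lcorl held 7874 counts over the 6 libraries, against 2363 for Ncapg, and the sources used here do not give whether strand was used in counting, so a part of either count may belong to the other gene. Lcorl had a log2 fold change of 0.36 and did not pass (edgeR, adjusted p = 0.291).

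In GRCm39, Ncapd2 (ENSMUSG00000038252) lies on chromosome 6, 125144970 to 125168664, minus strand. Ncapg (ENSMUSG00000015880) lies on chromosome 5, 45827261 to 45857888, plus strand. Ncaph (ENSMUSG00000034906) lies on chromosome 2, 126945729 to 126975874, minus strand.

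Of the subunits specific to condensin II, 1 of 3 rose. It was Ncapg2, which encodes a HEAT-repeat subunit and was read at 46.1, 44.7 and 44.8 CPM in KANSL1-deficient libraries, against 31.3, 10.7 and 12.6 CPM in control libraries. The KANSL1-deficient libraries were nearly alike, and control replicate 1 lay far above the other controls. The log2 fold change was 1.32 ± 0.33 (SE; edgeR, adjusted p = 0.0366). This call was lost without any 1 of KANSL1-deficient replicates 1, 2 or 3 or control replicates 2 or 3 (adjusted p between 0.0831 and 0.123), and with library totals (0.057). Without control replicate 1 the log2 fold change was 1.94 (adjusted p = 0.000939).

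Ncapd3, the HEAT-repeat subunit that is the counterpart of Ncapd2, was read at 78.8, 85.7 and 79.4 CPM in KANSL1-deficient libraries, against 80.7, 57.7 and 76.5 CPM in control libraries. The groups overlapped, and the log2 fold change was 0.18 ± 0.16 (SE; edgeR, adjusted p = 0.554). Ncaph2, the kleisin of condensin II, was read at 148, 153 and 160 CPM in KANSL1-deficient libraries, against 137, 158 and 154 CPM in control libraries. The ranges of the groups overlapped, with the highest value in a KANSL1-deficient library and the lowest in a control library. The log2 fold change of Ncaph2 was 0.04 ± 0.12 (SE; edgeR, adjusted p = 0.901), with TMM scaling, and it was -0.11 with library totals and -0.03 without control replicate 1.

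In GRCm39, Ncapg2 (ENSMUSG00000042029) lies on chromosome 12, 116369022 to 116427351, plus strand. Ncapd3 (ENSMUSG00000035024) lies on chromosome 9, 26941471 to 27006611, plus strand. Ncaph2 (ENSMUSG00000008690) lies on chromosome 15, 89239922 to 89257029, plus strand.

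**Figure D2:**
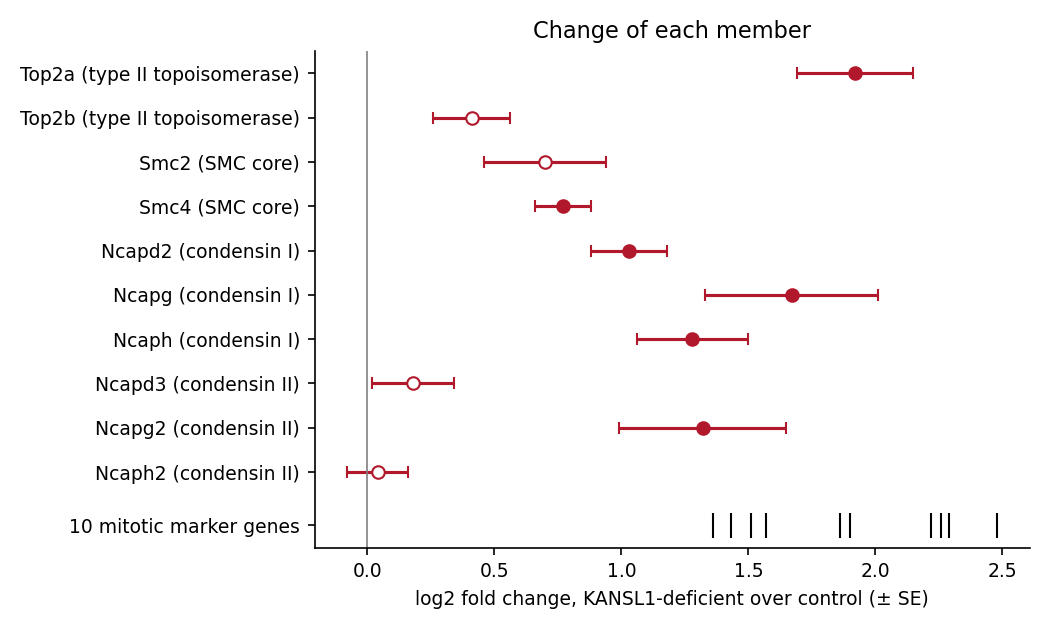
Log2 fold change of KANSL1-deficient over control with its SE for the 10 genes (filled where the adjusted p of edgeR was under 0.05), above ticks for the 10 mitotic marker genes. The condensin I subunits lie between 1.03 and 1.67, and those of condensin II at 0.18, 1.32 and 0.04.

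Promoter windows are shown for the HEAT-repeat pair that rose, Ncapg and Ncapg2, and for Ncaph2, whose level hardly differed. Capitals mark the same letters as above, on either strand. Ncapg is at chr5:45669675-45669974, Ncapg2 at chr12:116405186-116405485 and Ncaph2 at chr15:89355469-89355768, all on the plus strand of GRCm38.p6.
Ncapg: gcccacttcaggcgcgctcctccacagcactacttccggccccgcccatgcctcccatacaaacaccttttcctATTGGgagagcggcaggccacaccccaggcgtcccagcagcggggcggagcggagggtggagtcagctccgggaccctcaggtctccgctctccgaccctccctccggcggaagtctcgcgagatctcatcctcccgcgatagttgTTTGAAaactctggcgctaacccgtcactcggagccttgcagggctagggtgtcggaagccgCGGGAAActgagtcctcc
Ncapg2: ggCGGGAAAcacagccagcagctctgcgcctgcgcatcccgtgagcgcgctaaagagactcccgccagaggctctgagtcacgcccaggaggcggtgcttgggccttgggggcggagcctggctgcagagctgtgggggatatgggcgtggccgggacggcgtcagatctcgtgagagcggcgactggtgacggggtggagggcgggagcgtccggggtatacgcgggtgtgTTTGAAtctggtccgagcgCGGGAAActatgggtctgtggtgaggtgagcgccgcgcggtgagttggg
Ncaph2: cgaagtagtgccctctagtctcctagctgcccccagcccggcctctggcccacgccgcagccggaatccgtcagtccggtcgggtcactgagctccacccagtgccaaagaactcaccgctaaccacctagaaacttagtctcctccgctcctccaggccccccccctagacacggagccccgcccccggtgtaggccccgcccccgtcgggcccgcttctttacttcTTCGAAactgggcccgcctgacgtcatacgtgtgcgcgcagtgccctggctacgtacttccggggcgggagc
The windows of Ncapg and Ncapg2 each held TTTGAA once on the gene's strand, 30 and 18 bases upstream of the start. Ncapg held the E2F-like TTTCCCG 1 time and Ncapg2 2 times, all on the opposite strand. The Ncaph2 window held TTCGAA, 22 bases upstream, and none of the others. The table had windows for 9 of the 10 genes, all but Smc4, and 10 windows in all because Ncapd3 has 2 starts. TTTGAA stood in 6 of the 10, TTCGAA in 2, CCAAT in 5 and an E2F-like match in 3, where 5.58% of all windows held an E2F-like match and 3.39% TTTCCCG. Smc2 and Ncapd3, not called higher, were among the genes with TTTGAA, while the window of Ncaph, called higher, held none of these letters.

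The balance of condensin I over condensin II subunits was higher in every KANSL1-deficient library than in any control library. As the mean log2 FPKM of the condensin I subunits minus that of the condensin II subunits, it was 0.11, 0.22 and 0.22 in the KANSL1-deficient libraries, against -0.48, -0.59 and -0.73 in the control libraries. The groups did not overlap, and the gap between them was several times the spread inside each group. This balance averaged 0.18 ± 0.06 in KANSL1-deficient and -0.60 ± 0.12 in control libraries (SD, n = 3 each), a difference of 0.78 (exact two-sided permutation test, p = 0.1, the smallest possible; 0.133 when adjusted over the 16 ratios). It lay between 0.72 and 0.84 without any 1 library, and it was 0.84 without control replicate 1.

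By counterpart, the FPKM ratio of Ncapd2 over Ncapd3 was the steadiest, at 2.85, 2.73 and 3.18 in the KANSL1-deficient libraries, against 1.63, 1.58 and 1.63 in the control libraries. Control replicate 1 did not stand apart in this ratio. The log2 difference was 0.85 (exact two-sided permutation test, p = 0.1; 0.133 adjusted), and 0.86 without that library. Ncaph over Ncaph2 was 0.611, 0.734 and 0.417 in the KANSL1-deficient libraries, against 0.343, 0.197 and 0.214 in the control libraries, a log2 difference of 1.23 (exact permutation p = 0.1; 0.133 adjusted), and 1.48 without control replicate 1. The kleisin of condensin II was thus above that of condensin I in every library. Ncapg over Ncapg2 overlapped between the groups, at 0.720, 0.791 and 1.19 in the KANSL1-deficient libraries, against 0.655, 0.932 and 0.634 in the control libraries. Their log2 difference was 0.27, with SDs of 0.38 and 0.31 (n = 3 each; exact permutation p = 0.5; 0.571 adjusted), and it was 0.19 without control replicate 1.

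**Figure D3:**
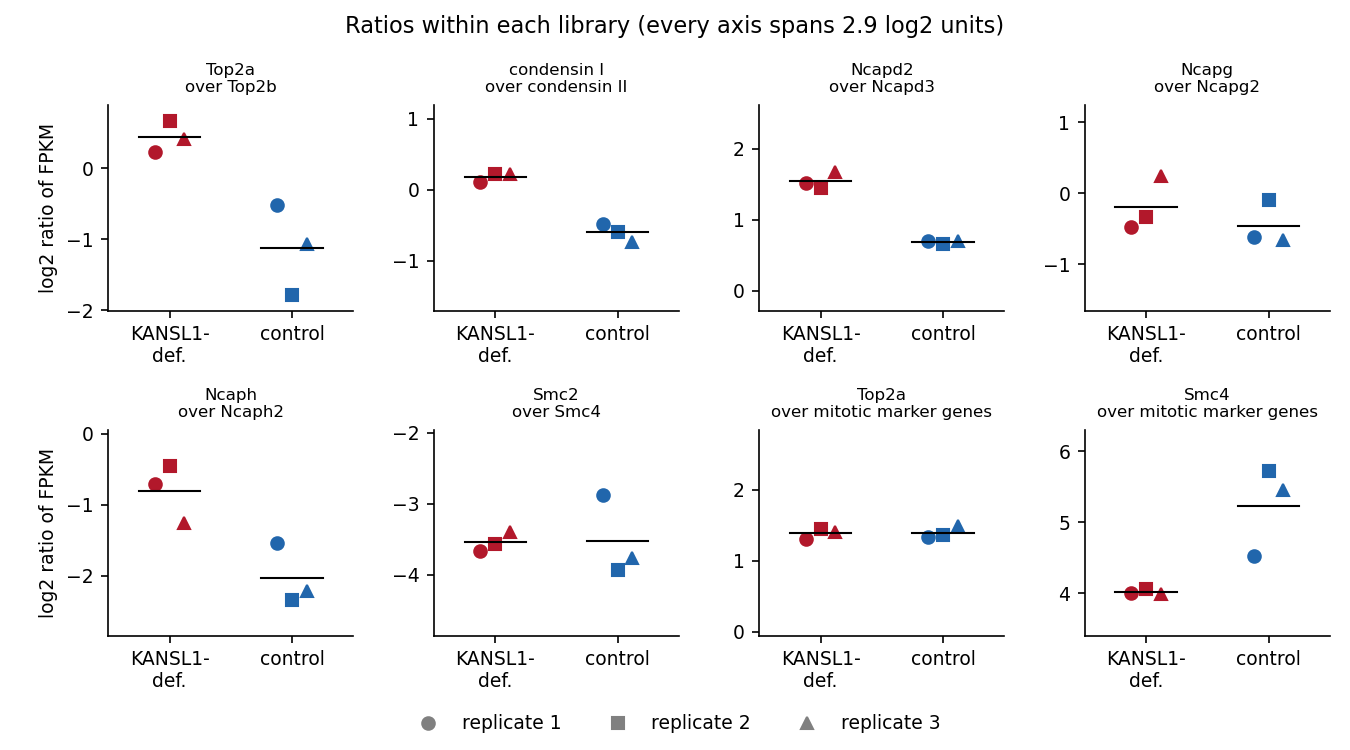
Log2 ratios of FPKM within each library (circle, square and triangle for replicates 1, 2 and 3; lines are group means), every axis spanning the same number of log2 units. Condensin I over II is 0.11 to 0.22 in KANSL1-deficient and -0.73 to -0.48 in control libraries, and Top2a over the mitotic marker genes is 1.30 to 1.45 in KANSL1-deficient and 1.34 to 1.49 in control libraries.

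Each gene was also set against the 10 mitotic marker genes, all of which rose (median log2 fold change 1.88). Top2a stood in nearly the same proportion to their mean log2 FPKM in all libraries, including control replicate 1. The log2 ratio was 1.30, 1.45 and 1.40 in the KANSL1-deficient libraries, against 1.34, 1.36 and 1.49 in the control libraries. The difference of -0.01 was smaller than the SD of 0.08 in either group (exact two-sided permutation test, p = 1; 1 adjusted), and it lay between -0.04 and 0.04 without any 1 library, at -0.04 without control replicate 1. Ncapg came next, at -1.69, -1.72 and -1.18 in the KANSL1-deficient libraries, against -1.17, -1.17 and -1.54 in the control libraries, a difference of -0.24 with overlapping groups (exact permutation p = 0.2; 0.246 adjusted), and -0.18 without control replicate 1.

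The other 8 genes were lower against the mitotic marker genes in every KANSL1-deficient library than in any control library (exact permutation p = 0.1 for each; 0.133 adjusted). All 10 marker genes rose, so a gene that changed less than they did falls in this ratio. These p-values are thus no separate evidence on the 8 genes. The log2 difference was -0.51 for Ncapg2, -0.72 for Ncaph and -0.94 for Ncapd2. It was -1.22 for Smc4 and -1.24 for Smc2. It was -1.57 for Top2b, -1.80 for Ncapd3 and -1.95 for Ncaph2. With 1 library left out, these differences ranged from -0.62 to -0.37 for Ncapg2, from -0.89 to -0.49 for Ncaph and from -1.18 to -0.72 for Ncapd2. They ranged from -1.57 to -0.98 for Smc4, from -1.29 to -1.16 for Smc2 and from -1.91 to -1.26 for Top2b, and from -2.05 to -1.58 for Ncapd3 and from -2.36 to -1.73 for Ncaph2. Without control replicate 1 the difference was -0.37 for Ncapg2, -0.88 for Ncaph, -1.18 for Ncapd2, -1.57 for Smc4, -1.26 for Smc2, -1.91 for Top2b, -2.05 for Ncapd3 and -2.36 for Ncaph2. All 8 stayed below 0 in each of these cases. Within the controls Smc4 also stood apart from Smc2: against the mitotic marker genes Smc2 was 1.65, 1.78 and 1.70 in control replicates 1 to 3, and Smc4 was 4.53, 5.72 and 5.46.

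The order of levels per length differed between the groups, in particular for Top2a. In KANSL1-deficient cells the mean FPKM ran from Smc4 (178 ± 15.2) through Ncaph2 (34.8 ± 2.07), Top2a (28.8 ± 3.53), Ncapd2 (28.6 ± 2.27), Top2b (21.3 ± 2.21), Ncaph (20.3 ± 4.93), Smc2 (15.4 ± 2.61), Ncapd3 (9.78 ± 0.483) and Ncapg2 (4.32 ± 0.0623) to Ncapg (3.89 ± 1.14; SD, n = 3 each). Neighbours whose ranges overlapped there were Top2a with Ncapd2, Top2b with Ncaph, Ncaph with Smc2, and Ncapg2 with Ncapg. In control cells Top2a was in place 8, with a mean of 8.48 ± 3.56 FPKM, and Smc4 (115 ± 7.10) and Ncaph2 (37.5 ± 2.30) were again the highest. Between place 3 and place 8 in control cells, from Top2b (17.8 ± 3.09) to Top2a, each gene's range overlapped the next. Ncapg2 (1.94 ± 1.25) and Ncapg (1.36 ± 0.737) were lowest and overlapped. FPKM values carry no TMM scaling, so the mean of Ncaph2 was lower in KANSL1-deficient cells in FPKM and slightly higher in TMM-scaled CPM.

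**Figure D4:**
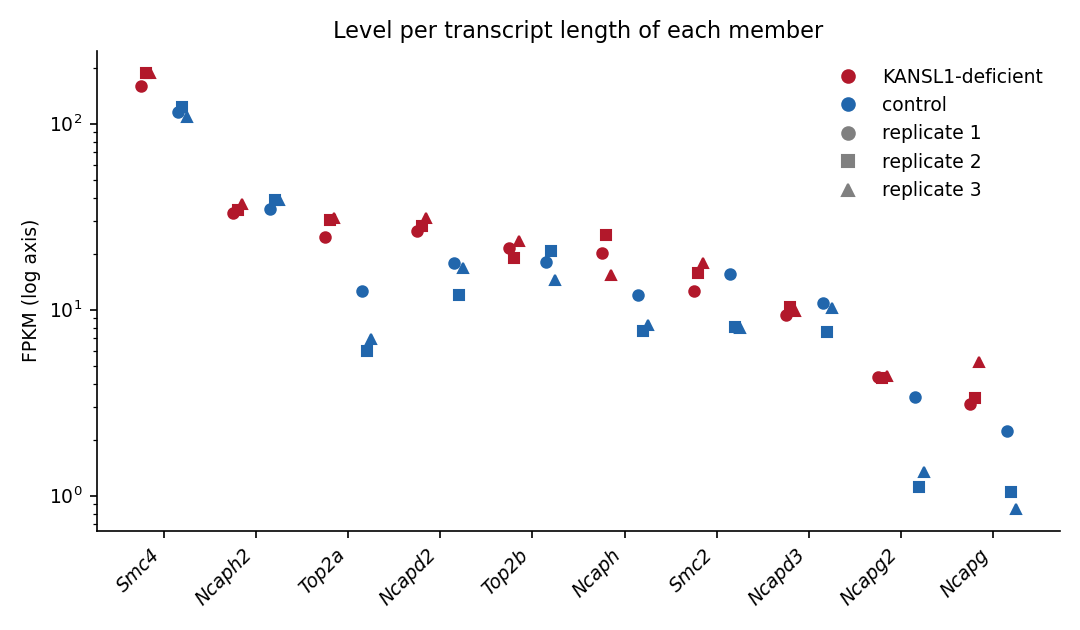
FPKM of the 10 genes in each library on a log axis, ordered by the mean in KANSL1-deficient libraries (colour for the group, circle, square and triangle for replicates 1, 2 and 3). Smc4 lies between 108 and 188 FPKM and Ncapg between 0.846 and 5.20 FPKM over all 6 libraries.

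Other genes of chromosome structure were read from a list of 56, of which 55 were tested. In all, 12 rose and 0 fell (edgeR), with a median log2 fold change of 0.27, against -0.02 for all tested genes. Of all tested genes, edgeR called 3.85% higher. At an unadjusted p under 0.05, 20 were higher and 0 lower, against 11.7% higher and 11.0% lower of all tested genes. DESeq2 called 17 higher and 0 lower, and 7.56% of all genes higher. Without control replicate 2, 6 rose.

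Among 14 condensin partners and chromosome-shape genes, 7 rose, with a median of 0.56. Kif4, the chromokinesin that acts with condensin along chromosome arms, was read at 29.6, 38.1 and 35.9 CPM in KANSL1-deficient libraries, against 8.50, 6.81 and 6.24 CPM in control libraries (log2 fold change 2.27 ± 0.22, SE; edgeR, adjusted p = 0.00255). Control replicate 1 was the highest control for Kif4 by a small margin, whereas for Smc4 it lay between the other controls. Aurkb, the kinase of the chromosomal passenger complex, had 62.4 ± 7.85 CPM in KANSL1-deficient and 13.0 ± 6.66 CPM in control libraries (SD, n = 3 each; log2 fold change 2.26; adjusted p = 0.00388). Kif22, a chromokinesin, had a log2 fold change of 1.10 (0.00728), and Anp32e, a chaperone that removes the histone variant H2A.Z, of 0.74 (0.00648). The other 3 that rose were Mki67, which coats mitotic chromosomes (1.55; 0.0128), and the mitotic kinase genes Cdk1 (2.43; 0.0141) and Plk1 (1.72; 0.0247).

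Cohesin, the SMC complex that holds sister chromatids together, was read in its core and in its regulators. Of 5 core genes 0 passed with edgeR, 2 had an unadjusted p under 0.05 and DESeq2 called 1. Stag2 had a log2 fold change of 0.44 (adjusted p = 0.0699), Stag1 of 0.35 (0.129), Smc1a of 0.27 (0.292) and Smc3 of 0.26 (0.247). Of 16 tested genes of cohesin loading, release and acetylation, 4 rose. Esco2, the acetyltransferase that locks cohesin onto replicated DNA, was read at 21.0, 22.3 and 19.4 CPM in KANSL1-deficient libraries, against 8.21, 3.16 and 2.24 CPM in control libraries (log2 fold change 2.21 ± 0.40, SE; edgeR, adjusted p = 0.00968), and without control replicate 2 it did not pass (0.0605). Without control replicate 1 its log2 fold change was 2.94 (edgeR, adjusted p = 0.000939). Cdca5, which encodes sororin, the protector of cohesion, had a log2 fold change of 1.70 (0.00959). Dscc1 (1.38; 0.0206) and Chtf18 (1.54; 0.0486), subunits of a clamp loader needed for cohesion, were less stable. With 1 library left out, Dscc1 passed only without control replicate 1 or 3 and Chtf18 only without control replicate 3 (highest adjusted p 0.0852 for Dscc1 and 0.148 for Chtf18, which had 1.65 and 0.0883 without control replicate 1).

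None of the type I topoisomerase or adduct repair genes passed the test. Of 6 tested type I topoisomerase genes and partners, 0 passed with edgeR, 0 had an unadjusted p under 0.05 and DESeq2 called 0. Top1, which relaxes supercoils ahead of polymerases, had a log2 fold change of 0.13 (adjusted p = 0.698), Rmi1 of 0.19 (0.643) and Rmi2 of 0.29 (0.528), and Top1mt was read at no more than 1.98 CPM in any library. Of 5 genes that repair topoisomerase adducts, 0 passed with edgeR, 0 had an unadjusted p under 0.05 and DESeq2 called 0. Among them Tdp1 and Sprtn, which resolve protein adducts on DNA, had log2 fold changes of 0.38 (adjusted p = 0.341) and -0.31 (0.372), the nuclease gene Mre11a of -0.11 (0.779) and Zfp451 of 0.10 (0.78). In the SMC5/6 complex 1 of 9 genes rose, the ubiquitin ligase subunit Nsmce1 (0.75; adjusted p = 0.0112), while Smc6 had a log2 fold change of 0.38 (0.267), Nsmce4a of 0.39 (0.297) and Nsmce3 of -0.51 (0.327). Nsmce1 was lost without KANSL1-deficient replicate 2 (adjusted p = 0.0629).

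**Figure D5:**
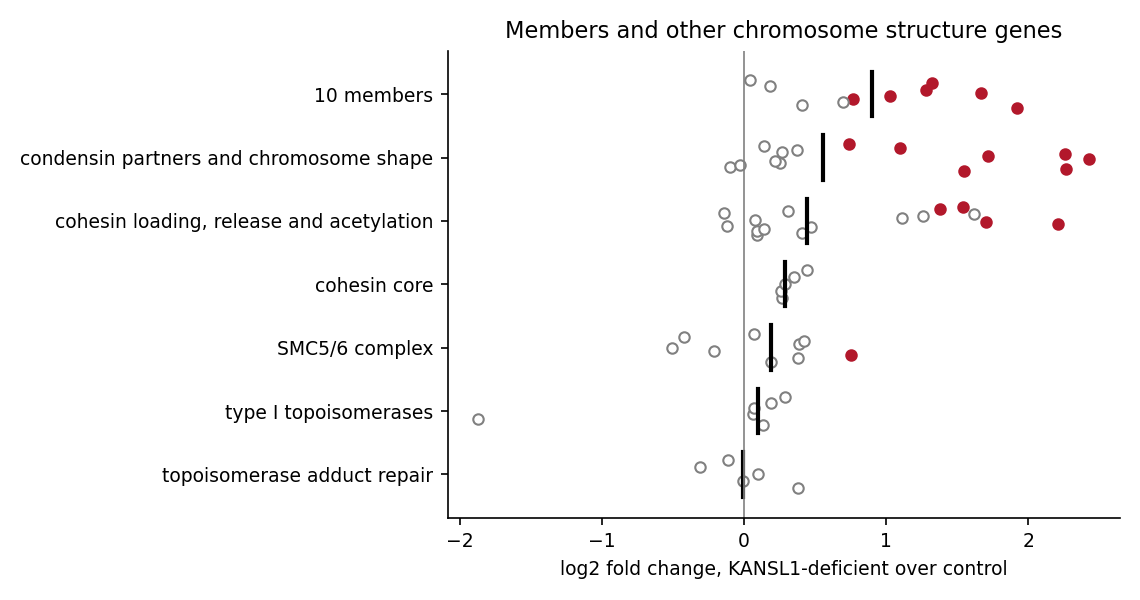
Log2 fold change of KANSL1-deficient over control for the 10 genes and for 6 groups of other chromosome structure genes (each point a tested gene, filled where the adjusted p of edgeR was under 0.05, lines are medians). Filled points lie among the 10 genes, the condensin partners, the cohesin regulators and Nsmce1 of the SMC5/6 complex.

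Markers of other stages and cell types were read in the same libraries. Of 10 G1/S genes 7 rose, with summed levels of 1408 to 1621 CPM in KANSL1-deficient and 775 to 947 CPM in control libraries. Of 4 tested double-negative markers 0 passed with edgeR, 0 had an unadjusted p under 0.05 and DESeq2 called 0. Of these 4, 3 had a positive log2 fold change, and the median was 0.44. The summed level of the 6 double-negative markers with counts was 60.1 to 73.7 CPM in KANSL1-deficient and 48.1 to 56.6 CPM in control libraries, without overlap. Spi1, too low to be tested, was at 0 in the KANSL1-deficient libraries and at most 0.132 CPM in control libraries. Double-positive markers summed to 14866 to 16535 CPM in KANSL1-deficient and 12606 to 13098 CPM in control libraries, and 3 of 9 rose. Zbtb7b, a defining gene of CD4 single-positive cells, was at or near 0 in all libraries. CD8 single-positive markers summed to 15.1 to 18.3 CPM in KANSL1-deficient and 26.1 to 29.0 CPM in control libraries, with 0 of 2 passing by edgeR, 2 at an unadjusted p under 0.05 and 2 called lower by DESeq2. B cell markers summed to at most 2.50 CPM, macrophage and dendritic cell markers to at most 5.10 CPM, erythroid markers to at most 8.02 CPM and thymic epithelial markers to at most 12.9 CPM in any library, with 0 passing by edgeR or DESeq2 and 1, the macrophage gene Lyz2, higher at an unadjusted p under 0.05.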

How the data were processed

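RNA was sequenced from 3 KANSL1-deficient and 3 control samples of sorted double-positive thymocytes, with polyadenylated RNA selected, per the labels' protocols. The tools named in the submitters' processing notes are STAR, featureCounts and DESeq2, with GRCm39, and no versions are given there. The deposited tables hold whole-number read counts per gene and FPKM values. The authors' deposited comparison gives a mean normalized signal, the linear fold, its log2, p-values and a mark of significance. Only its log2 fold changes, its p-values (unadjusted and adjusted) and its marks were used here.

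Counts were tested in R 4.3.3 with edgeR 4.0.16, by its quasi-likelihood method, with TMM scaling, the default filter by group (minimum count 10, minimum total 15), robust shrinkage and Benjamini-Hochberg adjustment at 0.05 over all tested genes, and the procedure was tested on simulated data. The SE is the log2 fold change divided by the square root of F. Ratios within a library used log2 FPKM and were tested by exact permutation, two-sided, with 20 possible assignments. The 3 ratios of counterpart condensin subunits were added after the values had been seen. The members and gene lists were chosen with earlier results of these data known. Named genes are the members, Kansl1, the 4 genes of smallest p in each list of other chromosome structure genes and the 5 genes nearest in pattern to Top2a, Smc2 and Top2b. Mki67, Cdk1, Plk1 and the neighbour Lcorl fall outside that rule and were chosen after their values were seen. The cell type markers named singly (Cd4, Cd8a, Rag1, Zbtb7b, Spi1 and Lyz2) also fall outside it. Alternatives used median-of-ratios scaling, library totals, other filters, DESeq2 1.42.0, limma 3.58.1 (voom, and log2 of FPKM plus 1 or 0.1), a block for replicate number, and leaving out each library once. Whether a library is 1 animal is not stated in the labels, so p-values measure the spread between these samples, which may be technical. The summed level of the CD4 single-positive markers is not reported here.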

Additional observations from a re-analysis of the deposited data

How the results depend on the processing

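The number of the 10 genes called higher was 4 to 7 over all 15 alternatives and 4 to 7 with 1 library left out, and 0 were called lower in each. Top2a, Smc4, Ncapd2 and Ncaph were called higher under each alternative. Ncapg, with 1 library left out, had log2 fold changes of 1.41 to 2.17 and lost its call in 2 of 6 cases. Ncapg2 lost its call with library totals (1.16) and with log2 FPKM (0.93 with a pseudocount of 1, 1.28 with 0.1), and with 1 library left out it lay between 1.03 and 1.94. Smc2 passed without a filter (0.69) and with DESeq2 (0.70), and with 1 library left out lay between 0.52 and 1.07. The median of all tested genes moved by -0.15 (log2) under library totals. Ncaph2 was then -0.11, and it was -0.10 and -0.11 with log2 FPKM plus 1 and plus 0.1, and -0.03 to 0.07 with 1 library left out. Top1 was -0.02 with library totals and -0.01 with log2 FPKM (-0.02 to 0.23 with 1 library left out), and Zfp451 was -0.04 and -0.03 (-0.06 to 0.20).

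Among the ratios, Top2a over the mitotic marker genes was 0.10 with summed FPKM and -0.04 to 0.04 with 1 library left out, and Smc2 over Smc4 was -0.22 to 0.31. The count of other chromosome structure genes called higher was 6 to 13 with 1 library left out. Over all tested genes, 591 were higher and 447 lower. Higher genes numbered 367 with library totals, 1067 with DESeq2, 300 and 277 with log2 FPKM plus 1 and plus 0.1, and 169 to 447 with 1 library left out. Lower genes numbered 957 with library totals, 845 without a filter, 740 with at least 5 CPM in 3 libraries, 942 with DESeq2, and 86 to 381 with 1 library left out. The share of higher genes among those called was 56.9%, and 27.7% with library totals. The labels give both groups the numbers 1 to 3 without saying that they mark a litter or day, and same-numbered libraries did not deviate together (correlations of -0.0486, -0.0236 and -0.0955). With the replicate block, 242 genes were higher and 164 lower, and 6 of the 10 genes were called. The causes of these shifts were not tested. Ncapg had the fewest counts of the 10 genes in each library, 129 to 757, and the part of counting error in its spread was not tested.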

Other observations

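Genes whose pattern over the 6 libraries lay nearest to 3 of the genes were ranked among 8812 tested protein-coding genes with a mean of at least 5 CPM. The measure was the root mean square difference between log2 CPM values, each centred on its own mean. Nearest to Top2a were Ccna2 (0.06), Kif11 (0.09), Bub1b (0.12), Ckap2l (0.13) and Spc25 (0.13). Ccna2 was read at 33.1, 41.6 and 44.1 CPM in KANSL1-deficient libraries, against 15.0, 8.00 and 8.83 CPM in control libraries, so it shared the excess of control replicate 1 over the other controls. Nearest to Smc2 were Lig1 (0.12), 2010315B03Rik (0.14), Atad2 (0.15), Cip2a (0.15) and Rfc4 (0.15). Lig1, a DNA ligase of replication, was read at 75.2, 107 and 119 CPM in KANSL1-deficient libraries, against 95.5, 53.0 and 41.4 CPM in control libraries, and as with Smc2, control replicate 1 lay above KANSL1-deficient replicate 1. Its log2 fold change of 0.67 did not pass (edgeR, adjusted p = 0.164).

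Nearest to Top2b were Ctcf (0.05), H6pd (0.05), Ppp1cc (0.06), Senp6 (0.06) and Hmgn2 (0.07). Ctcf, which encodes the boundary factor of chromatin loops, was read at 262, 232 and 272 CPM in KANSL1-deficient libraries, against 210, 229 and 158 CPM in control libraries. Its log2 fold change of 0.36 did not pass (edgeR, adjusted p = 0.172). Among the 10 genes themselves, Top2a lay nearest to Ncapg (0.27) and farthest from Ncaph2 (1.04), and Ncapd3 and Ncaph2 were nearest to each other (0.22). Smc4 lay nearer to Top2b (0.23) than to its partner Smc2 by this measure.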
